A study of Mus musculus with 3 samples.

Results

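The genes described here are those whose symbols start with Clec or with Cd209, the naming families of C-type lectins and of the DC-SIGN relatives of the mouse. For each symbol the longest transcript with an NM_ accession was used, which gave 39 genes, 32 named Clec and 7 named Cd209, of 24453 gene symbols listed. They were followed in macrophages sorted from the heart, the kidney and the liver of C57BL/6 mice 8 weeks old, studied in the steady state, and each tissue gave 1 library. The cells carried CD11b and F4/80 and lacked Ly6G and Ly6C, and the liver cells are labelled as Kupffer cells, the macrophages that line the liver sinusoids. The RNA was amplified with a kit for low input before sequencing. The labels do not say how many mice were pooled, and without replicates no difference was tested against the variation between animals.

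C-type lectin receptors bind glycans, lipids, proteins or crystals on microbes and on the body's own cells through a fold that in many of them depends on calcium. Many of the receptors on macrophages and dendritic cells signal through the kinase Syk, either by a tyrosine motif in their own tail or through the adaptor chains FcRγ and DAP12. Others carry an inhibitory tyrosine motif that recruits phosphatases, and others again mainly take up their ligand. Not every gene named Clec encodes such a receptor. Clec3a, Clec3b, Clec11a and Clec18a encode secreted proteins, and Clec16a encodes an intracellular protein of endosomes and mitophagy.

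Levels are RPKM, the reads on a transcript scaled for its exon length in kilobases and for the reads counted in the library. The whole read numbers could be recovered from the low values and gave depths of 14460684, 15550859 and 16743426 reads for the heart, kidney and liver library, counted over all transcripts. RPKM intervals are exact 95% Poisson intervals of these reads, and intervals of folds are exact 95% Clopper-Pearson intervals. Neither covers more than the error of counting, and neither takes account of the authors' limit of 3 tags counted at a position. Within that limit, copies made by PCR could not be recognised. A gene with RPKM of at least 1 in a library was compared, and a difference of at least 2 on the scale log2(RPKM + 1), which is 4-fold there, counted as higher or lower. Folds given for a gene are ratios of RPKM, and against 0 reads they are lower bounds set against 3 reads. Of the sort genes, Adgre1, which encodes F4/80, stood at 427, 394 and 375 RPKM in the heart, kidney and liver library, and Ly6g had 2, 2 and 1 reads. Itgam, the CD11b gene, was at 93.7, 38.0 and 27.9 RPKM, with a different gene overlapping 68.7% of its exons. Ly6c2, which encodes a form of the Ly6C left out by the sort, still stood at 9.74, 5.58 and 8.41 RPKM.

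Markers of other cells were present at differing numbers in the 3 libraries. With RPKM of at least 1 there were 6, 1 and 0 of 10 cardiomyocyte genes in the heart, kidney and liver library, 6, 1 and 3 of 10 fibroblast and mural genes, 0, 6 and 1 of 10 renal tubule genes and 1, 2 and 10 of 10 hepatocyte genes. For T and NK cells the numbers were 4, 1 and 5 of 10, for B cells 4, 2 and 7 of 8, and for plasmacytoid dendritic cells 4 in each library of 8. Of the 9 genes listed for the sort and for macrophages in general, 8 reached RPKM of at least 1 in every library, the exception being Ly6g.

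C-type lectin genes were found at RPKM of at least 1 more often than genes in general, and their summed level was lowest in the kidney library. In the heart, kidney and liver library 22, 20 and 23 of the 39 genes reached RPKM of at least 1, which is 56.4%, 51.3% and 59% of them, while of all 24453 symbols 37.1%, 40.6% and 37.6% did. All symbols include those without an NM_ transcript, such as small RNA genes, which the choice of the C-type lectin genes leaves out. These shares are therefore not of like sets, and the genes compared below come from the same symbols. RPKM of at least 100 was reached by 10, 6 and 12 of the 39 genes. Their RPKM summed to 2671 in the heart, 1717 in the kidney and 3339 in the liver library. In the kidney library the 5 highest, Clec4b1, Clec7a, Clec4a3, Clec4a1 and Clec4a2, made up 74.3% of this sum. The 5 highest in the heart library, Clec4n, Clec4a1, Clec7a, Clec4a3 and Clec4b1, made up 58.3%. In the liver library Clec4f, Clec1b, Clec4a3, Clec4n and Clec7a made up 56%, with Clec4f alone at 17.1%. The Cd209 genes made up 11% of the sum in the heart, 0.94% in the kidney and 12.8% in the liver library.

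**Figure D1:**
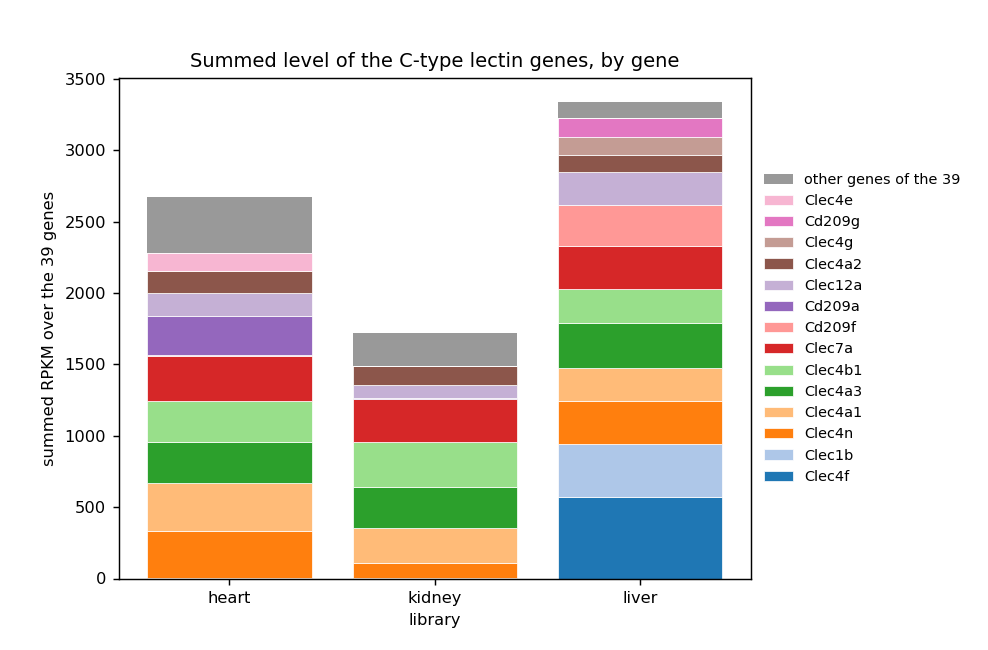
Summed RPKM of the 39 C-type lectin genes in the heart, kidney and liver library, stacked by gene, with the 14 genes of the highest single values named in the key. The kidney bar ends at 1717, below the heart bar at 2671 and the liver bar at 3339, and the Clec4f and Clec1b blocks are visible in the liver bar only.

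In all, 26 of the 39 genes passed the minimum of RPKM 1 in a library, and 13 of these 26 were at least 4-fold apart in at least 1 of the 3 comparisons. This is 50% of the genes compared, while 21.5% of all 11482 genes compared were. Against the kidney library 4 were higher and 1 was lower in the heart library, where the shares over all genes were 2.4% and 5.1%. Against the liver library 6 were higher and 6 lower in the heart library, where the shares over all genes were 5.33% and 7.13%. In the kidney library 2 were higher and 6 lower than in the liver library, where the shares over all genes were 7.57% and 5.1%. Against both other libraries at once, 4 genes were higher in the heart (Cd209a, Cd209d, Clec4d and Clec4e, where the share over all genes was 1.25%) and 5 in the liver (Cd209f, Cd209g, Clec1b, Clec4f and Clec4g, 3.24% of all genes). In the kidney 0 were higher (2.14% of all genes) and 1, Clec4e, was lower (0.705% of all genes), while Cd209a and Clec5a were lower in the liver (2.58% of all genes) and 0 were lower in the heart (1.26% of all genes). The same libraries enter several of these comparisons, so they are not independent. A gene near the minimum of RPKM 1 cannot differ by 2 log2 units after the pseudocount of 1, yet it counts among the genes compared. Of the 39 C-type lectin genes, 19 reached RPKM of at least 10 in a library. The shares were not compared at like levels. The median difference of the 26 genes was 0.35 for heart minus kidney, where all 11482 genes had -0.23. The same median was 0.11 for heart minus liver (all genes -0.16) and -0.60 for kidney minus liver (all genes 0.04). With levels scaled to a common sum over genes (TPM), 28 C-type lectin genes of 13244 genes passed the minimum. The median of kidney minus liver was then -0.02 (all genes 0.17). TPM also raised every level, so the pseudocount and the minimum of 1 weighed less. With median ratio scaling, where 26 passed, the median of kidney minus liver was -0.56 (all genes 0.06).

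**Figure D2:**
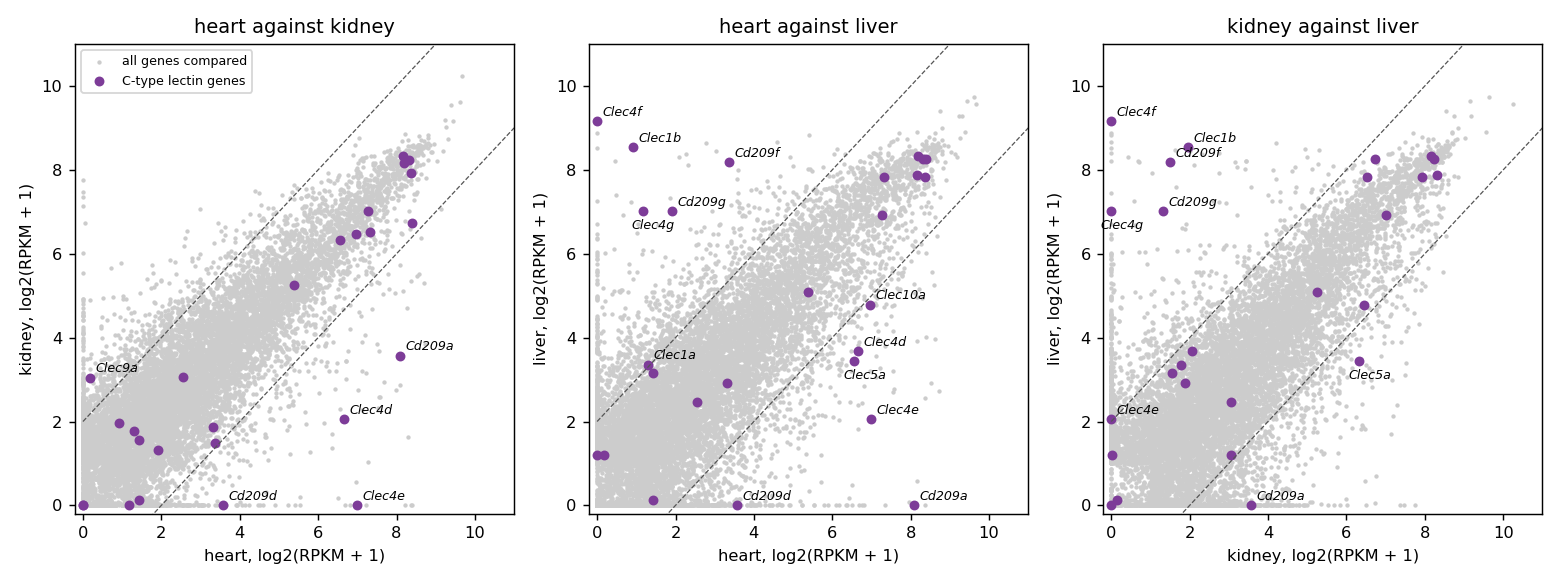
Levels as log2(RPKM + 1) in pairs of libraries, with the first-named library on the horizontal axis, all 11482 genes compared in grey and the 26 C-type lectin genes compared in purple. Dashed lines mark a difference of 2 log2 units, and the named genes lie on or beyond them, such as Clec4f at 0 RPKM in the heart and 572 RPKM in the liver library.

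The first group comprises 9 receptors that couple to Syk, among them the Dectin, Mincle and CLEC-2 genes, of which 8 were compared and Clec4b2, with at most 4 reads, was not. In the heart library 2 were higher and 1 lower than in the kidney library, between the heart and the liver library 3 were higher and 1 lower in the heart, and between the kidney and the liver library 1 was higher and 2 lower in the kidney. Over all genes compared the shares higher and lower were 2.4% and 5.1%, 5.33% and 7.13%, and 7.57% and 5.1% in these comparisons. Clec7a, which encodes Dectin-1, the receptor for fungal β-glucan, was the most even of the 6 genes above 100 RPKM throughout. It stood at 316 RPKM in the heart, 298 in the kidney and 304 in the liver library, with intervals of 310.2 to 322, 292 to 303.5 and 299 to 309.7. Its ranks by RPKM among all symbols were 106, 106 and 123. Clec4b1, which encodes DCAR, an FcRγ-coupled receptor for mycobacterial mannosides, stood at 286, 318 and 232 RPKM and was likewise within 4-fold in every comparison. Clec4n, which encodes Dectin-2, a receptor for fungal mannans, stood at 335 RPKM in the heart, 105 in the kidney and 304.5 in the liver library. It was 3.19-fold higher in cardiac than in renal macrophages (3.04 to 3.36) and 2.90-fold lower in renal than in liver macrophages (2.76 to 3.05), short of 4-fold in both.

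Clec4d and Clec4e lie next to Clec4n and differed far more. Clec4e encodes Mincle, a receptor for mycobacterial cord factor and for a protein released by dying cells, and Clec4d encodes MCL, which pairs with Mincle. Clec4e stood at 127 RPKM in the heart (123.3 to 131, 4611 reads), at 0 in the kidney (0 reads) and at 3.14 in the liver library (132 reads). The reads put it at least 1653-fold higher in cardiac than in renal macrophages and 40.5-fold higher in cardiac than in liver macrophages (34.0 to 48.5). It was also at least 40.9-fold lower in renal than in liver macrophages. This last difference, -2.05 on the log2 scale, was just past 4-fold and was -1.97 with median ratio scaling. Clec4d stood at 99.98 RPKM in the heart (1920 reads), 3.15 in the kidney (65 reads) and 11.7 in the liver library (261 reads). It was 31.8-fold higher in cardiac than in renal macrophages (24.8 to 41.3) and 8.52-fold higher than in the liver library (7.48 to 9.73). Both genes thus had their highest level in the heart and their lowest in the kidney library.

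Both genes are also known from neutrophils and monocytes. Of 10 neutrophil markers, 3, 1 and 1 had RPKM of at least 1 in the heart, kidney and liver library, with sums of 18.6, 18.1 and 31.6 RPKM. Csf3r, which monocytes share, stood at 11.8, 17.8 and 31.6 RPKM, S100a8 at 4.11, 0 and 0, Retnlg at 1.95, 0 and 0 and S100a9 at 0.4, 0 and 0. With 0 reads there were 4, 6 and 8 of the 10, namely Mmp8, Ngp and Camp in every library, Cxcr2 in the heart and liver, S100a8, S100a9 and Retnlg in the kidney and liver, and Ltf in the liver library. Of 8 monocyte markers, 6, 3 and 4 reached RPKM of at least 1, with sums of 267, 238 and 406 RPKM. Plac8 stood at 129, 5.69 and 337 RPKM and Ccr2 at 117, 227 and 54.2. Chil3 and F10 were found in the heart library and had 0 reads in both others, Hp had 0 reads in the kidney and Vcan in the liver library. The part of such cells in the lectin values was not tested. Here as in all bulk samples, fewer cells of a type and less RNA per cell cannot be told apart.

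Clec5a encodes MDL-1, a receptor that signals through DAP12 and is known as a receptor for dengue virus. It stood at 92.9 RPKM in the heart (90.4 to 95.5), 78.8 in the kidney (76.5 to 81.1) and 9.92 in the liver library (9.16 to 10.7). The heart and kidney values were close to each other and both well above the liver value. It was 9.37-fold higher in cardiac than in liver macrophages (8.62 to 10.19) and 7.94-fold higher in renal than in liver macrophages (7.31 to 8.64).

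Clec1b encodes CLEC-2, the receptor for podoplanin that is best known from platelets. It stood at 0.893 RPKM in the heart (0.5 to 1.47, 15 reads), 2.88 in the kidney (2.15 to 3.77, 52 reads) and 370.0 in the liver library (361.5 to 379, 7198 reads). It was 414-fold lower in cardiac than in liver macrophages (251 to 741) and 129-fold lower in renal than in liver macrophages (97.9 to 172). In the liver library it ranked 42 of 24453 symbols by RPKM. Of 11 markers of platelets and megakaryocytes, 2, 2 and 1 had RPKM of at least 1 in the heart, kidney and liver library, with sums of 419.9, 222 and 249 RPKM, of which Pf4, which macrophages can express too, gave 365, 220.1 and 249 and Ppbp gave 54.3, 1.44 and 0. In the liver library 9 of the 11 had 0 reads, among them Ppbp, Itga2b, Gp9, Gp1ba and Gp6. Exons of Clec1b share 3.61% of their bases with Clec9a on the same strand.

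Clec9a encodes DNGR-1, which binds the actin filaments exposed by dead cells and marks a class of conventional dendritic cells. It stood at 0.126 RPKM in the heart (6 reads), 7.24 in the kidney (6.52 to 8.02, 370 reads) and 1.29 in the liver library (71 reads). It was 57.3-fold lower in cardiac than in renal macrophages (26.1 to 157), a log2 difference of -2.87 that was -1.26 with a pseudocount of 5. Its exons share 5.59% of their bases with Clec1b, so in the liver library, where Clec1b had 7198 reads, its level is uncertain. Of 11 dendritic cell markers, 8, 7 and 6 had RPKM of at least 1 in the heart, kidney and liver library, with sums of 88.1, 123 and 377.5 RPKM, of which Sirpa, which macrophages express too, gave 46.8, 82.9 and 77.9 and Cd207 gave 4, 3.3 and 277. Xcr1, a marker of the same class as Clec9a, stood at 1.07, 3.11 and 1.62 RPKM and Batf3 at 1.37, 12.2 and 10.6. Other genes of the list were higher in the heart than in the kidney, with Kmo at 19.8, 6.74 and 0 RPKM, Zbtb46 at 2.23, 0.15 and 0 and Ccr7 at 9.197, 3.66 and 9.31. Itgae and Htr7 had 0 reads in the heart, Flt3 and Htr7 in the kidney, and Flt3, Zbtb46, Itgae, Kmo and Htr7 in the liver library. The part of dendritic cells in the level of Clec9a was not tested.

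**Figure D3:**
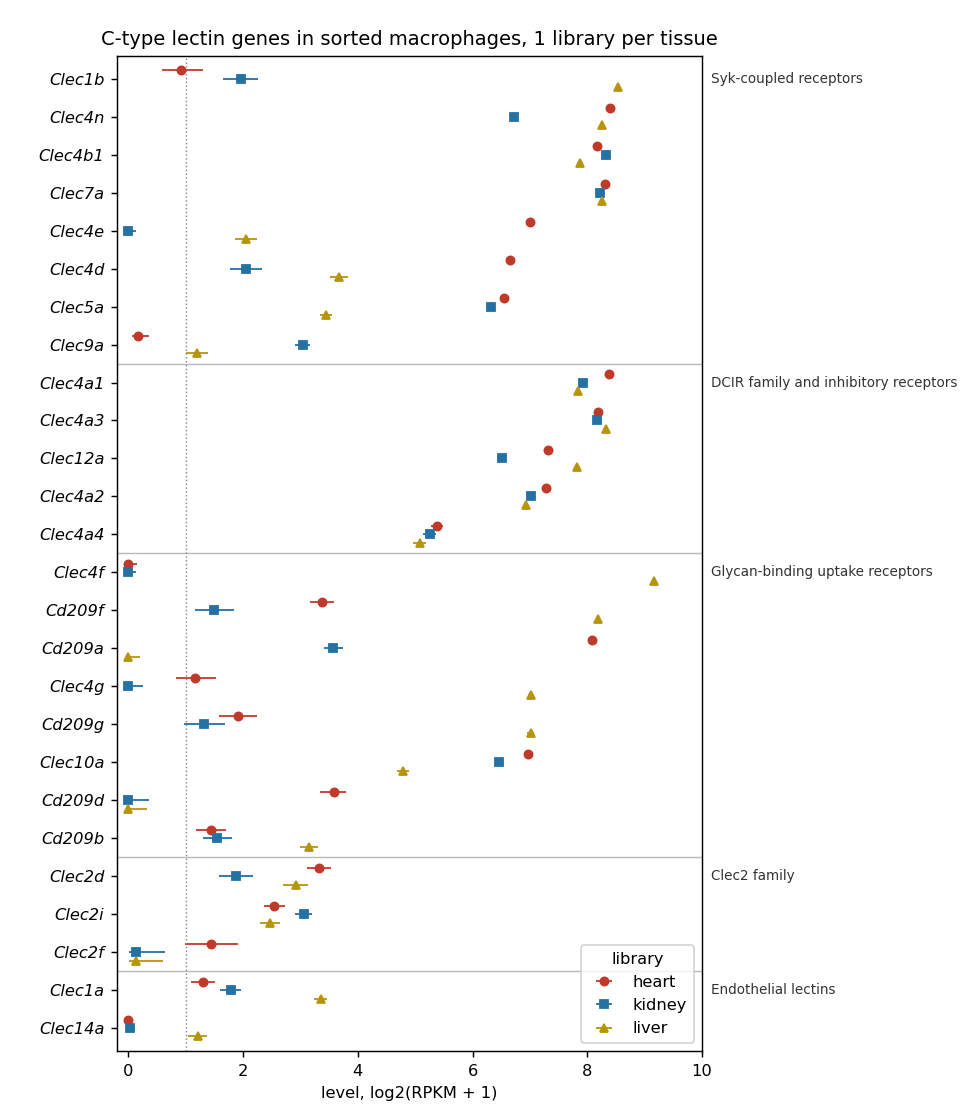
Level of the 26 C-type lectin genes compared, as log2(RPKM + 1) with exact 95% Poisson intervals of the reads, in the heart (circles), kidney (squares) and liver library (triangles), grouped by kind of receptor. The dotted line marks RPKM of 1. Clec7a, Clec4b1 and the DCIR genes sit close together in the 3 libraries, while Clec4f and Clec1b stand far right in the liver and Clec4e, Clec4d and Cd209a in the heart library.

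The second group comprises the DCIR family and the inhibitory receptors of Clec12a and Clec12b, 6 genes of which 5 were compared. None of the 5 was 4-fold apart in any comparison, where 21.5% of all genes compared were. Clec4a2 and Clec4a4 encode DCIR1 and DCIR2, which carry an inhibitory tyrosine motif, and Clec4a1 and Clec4a3 encode their relatives DCIR4 and DCIR3. Clec4a1 stood at 331, 243 and 228 RPKM in the heart, kidney and liver library, and Clec4a3 at 290, 287 and 319. Clec4a2 stood at 154, 129 and 121 RPKM and Clec4a4, the lowest of the family in each library, at 40.7, 37.2 and 32.8. Clec12a, which encodes the inhibitory receptor MICL for uric acid crystals, stood at 158 RPKM in the heart, 90.8 in the kidney and 226 in the liver library. It was 2.48-fold lower in renal than in liver macrophages (2.38 to 2.59). Clec12b, which encodes an inhibitory receptor as well, had 0 reads in every library. The summed level of this group was 974, 787 and 926 RPKM, which is 36.5%, 45.8% and 27.7% of the sum over all 39 genes. Among windows of 50 bases, 15% of those of Clec4a2 and 15.7% of those of Clec4a4 occur in another gene, mostly each in the other or in Clec4b1, so their levels are uncertain to that extent. The same holds for Clec4b1 of the first group, with 9.73% of its windows found in Clec4a2.

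Per the header, the authors' counting limited the tags at a position to 3, and what this did to densely read genes was not tested. Of the 39 genes, 8 in the heart, 4 in the kidney and 12 in the liver library had over 2 reads per bp of exon. Among these were Clec7a at 4.57, 4.63 and 5.09 reads per bp and Clec4a3 at 4.19, 4.46 and 5.34. Clec4a1, Clec4a2 and Clec12a also passed 2 reads per bp in a library. Equal RNA levels therefore do not follow from even values of these genes. The densest in any library were Clec4f at 9.58 and Clec1b at 6.19 reads per bp in the liver library. Both values exceed what at most 3 tags at each position of both strands would give. How the limit acted, or what 1 recovered read stands for in such genes, is therefore not known. Clec4a4 had 0.589, 0.578 and 0.55 reads per bp.

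The third group comprises 10 genes of glycan-binding receptors that mainly take up their ligands, of which 8 were compared, and it held 4 of the 5 genes that stood highest in Kupffer cells by over 4-fold. In the heart library 2 were higher and 0 lower than in the kidney library (2.4% and 5.1% of all genes). Of the same genes 3 were higher and 4 lower in cardiac than in liver macrophages (5.33% and 7.13% of all genes), and between the kidney and the liver library 1 was higher and 4 lower in the kidney (7.57% and 5.1% of all genes). Clec4f, a galactose-binding lectin used as a marker of Kupffer cells, had 0 reads in the heart and in the kidney and 22897 reads in the liver library, where it stood at 572 RPKM (565 to 579) and ranked 7 of all symbols. Against the liver level it was lower by a factor of at least 6592 in cardiac and 7089 in renal macrophages.

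Clec4g, which encodes LSECtin, a mannose-binding lectin known from liver sinusoidal endothelium and Kupffer cells, was likewise highest in the liver library. It stood at 1.24 RPKM in the heart (22 reads), 0 in the kidney and 129 in the liver library (2634 reads), and was 103-fold lower in cardiac (68.2 to 165) and at least 815.5-fold lower in renal than in liver macrophages. Its exons share 5.93% of their bases with a gene on the opposite strand, and reads were counted on both strands. Genes of sinusoidal endothelium were also found in the liver library. Of 8 such markers, 4, 4 and 7 had RPKM of at least 1 in the heart, kidney and liver library, with sums of 364, 411 and 276 RPKM. Fcgr2b, which macrophages express too, gave 326, 308 and 87.4 RPKM of these sums and Dnase1l3 gave 5.31, 91.6 and 91.4. Bmp2, highest in the heart library, gave 28.0, 7.08 and 6.99. Stab2 stood at 57.5 RPKM, Oit3 at 15.4 and Gpr182 at 3.89 in the liver, with no read of any of the 3 genes in either other library, and Plxnc1 had 0 reads in the liver. The part of endothelial RNA in the level of Clec4g was not tested.

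The Cd209 genes split between the tissues. They encode relatives of DC-SIGN, lectins that bind mannose and fucose on pathogens and on other cells. Cd209a stood at 270.1 RPKM in the heart (263 to 277, 5761 reads), 10.9 in the kidney (9.59 to 12.3, 250 reads) and 0 in the liver library (0 reads). It was 24.8-fold higher in cardiac than in renal macrophages (21.8 to 28.2), at least 2223-fold higher in cardiac than in liver macrophages and at least 89.7-fold higher in renal than in liver macrophages. Cd209d stood at 10.9 RPKM in the heart (135 reads) with 0 reads in the kidney and the liver library, which makes it at least 48.4-fold higher than in renal and at least 52.1-fold higher than in liver macrophages. With a pseudocount of 5 its log2 difference of 3.58 came to 1.67, short of 4-fold. Cd209a is also known from dendritic cells derived from monocytes, and the monocyte and dendritic cell markers given above were not tested as a source of it.

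Cd209f and Cd209g ran the other way and were highest in the liver library. Cd209f stood at 9.38 RPKM in the heart (149 reads), 1.81 in the kidney (31 reads) and 290.2 in the liver library (5340 reads). It was 30.9-fold lower in cardiac (26.3 to 36.7) and 160.0-fold lower in renal than in liver macrophages (113 to 236). Cd209g stood at 2.77 RPKM in the heart (43 reads), 1.495 in the kidney (25 reads) and 128 in the liver library (2303 reads), 46.3-fold lower in cardiac (34.2 to 64.1) and 85.6-fold lower in renal than in liver macrophages (57.8 to 132.5). Between the heart and the kidney library Cd209f was 5.17-fold higher in the heart as a ratio (3.49 to 7.88), which is 1.88 on the log2 scale and 2.05 with median ratio scaling. The pair is alike in sequence. Of the windows of 50 bases, 38.2% of those of Cd209f occur in Cd209g and 38.7% of those of Cd209g in Cd209f, so how the reads divide between them is uncertain. Cd209b, which encodes SIGNR1, stood at 1.70, 1.93 and 7.89 RPKM and was 4.65-fold lower in cardiac than in liver macrophages (3.43 to 6.42) and 4.10-fold lower in renal than in liver macrophages (3.09 to 5.5) as a ratio, but within 4-fold after the pseudocount of 1. Cd209c had 1 read in the heart and 0 in both others, and Cd209e had 0 reads in every library.

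Clec10a encodes MGL1, a lectin for galactose and N-acetylgalactosamine that is common on macrophages of connective tissue. It stood at 123 RPKM in the heart (119 to 128), 87 in the kidney (83.2 to 90.9) and 26.6 in the liver library (24.6 to 28.7). It was 4.64-fold higher in cardiac than in liver macrophages (4.26 to 5.06) and 3.27-fold higher in renal than in liver macrophages (2.99 to 3.57), of which the first alone passed 4-fold. Of its windows, 17.2% occur in the neighbouring relative Mgl2.

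Promoter sequences are shown for Cd209f and Cd209g, since they share both their tissue and much of their sequence, for Clec4f, the highest of the genes in the liver library, and for Clec4e, whose difference between the heart and the kidney library, 7 on the log2 scale, was the largest of the 26 genes. Each is the stretch of 250 bases before the start of the gene, from RefSeq on GRCm38.p6, the assembly of mm10, read 5′ to 3′ on the strand of the gene. They lie at chr8:4105765-4106014 on the minus strand (Cd209f), chr8:4134486-4134735 on the plus strand (Cd209g), chr6:83656117-83656366 on the minus strand (Clec4f) and chr6:123289872-123290121 on the minus strand (Clec4e). Capitals mark matches to the motifs searched.
Cd209f: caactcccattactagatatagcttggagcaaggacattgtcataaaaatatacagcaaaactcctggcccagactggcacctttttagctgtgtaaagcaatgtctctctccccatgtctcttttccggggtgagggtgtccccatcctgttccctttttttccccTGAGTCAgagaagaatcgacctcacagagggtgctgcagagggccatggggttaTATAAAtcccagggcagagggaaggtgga
Cd209g: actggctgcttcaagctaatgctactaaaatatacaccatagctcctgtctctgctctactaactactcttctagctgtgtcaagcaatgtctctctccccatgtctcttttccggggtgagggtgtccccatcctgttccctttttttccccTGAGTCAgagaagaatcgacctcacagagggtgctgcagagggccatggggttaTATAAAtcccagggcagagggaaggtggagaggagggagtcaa
Clec4f: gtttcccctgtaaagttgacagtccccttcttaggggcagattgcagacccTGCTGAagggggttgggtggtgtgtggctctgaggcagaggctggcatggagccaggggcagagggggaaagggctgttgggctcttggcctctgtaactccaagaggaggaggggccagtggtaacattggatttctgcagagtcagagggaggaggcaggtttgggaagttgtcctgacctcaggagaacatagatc
Clec4e: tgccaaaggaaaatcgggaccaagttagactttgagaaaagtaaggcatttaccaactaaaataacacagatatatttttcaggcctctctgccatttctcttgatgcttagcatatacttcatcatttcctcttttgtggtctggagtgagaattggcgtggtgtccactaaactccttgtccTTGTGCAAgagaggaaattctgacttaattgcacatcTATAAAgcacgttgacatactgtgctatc

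At the best ungapped offset, 14 bases, the promoters of Cd209f and Cd209g were identical at 189 of 236 bases, or 80.1%, the highest of 210 pairs of promoters among the genes compared, followed by Cd209b and Cd209d at 46.9%. Both hold a TATA box (TATAAA) and a match to the AP-1 motif (TGANTCA), at 29 and 83 bases before the start in Cd209f and at 43 and 97 bases before it in Cd209g. Clec4e holds a TATA box 29 bases and a match to the C/EBP motif (TTGCNNAA) 66 bases before its start, and Clec4f holds a match to the core TGCTGA of the MAF motif at 199 bases. Motifs were searched on both strands, matches may overlap, and a match describes letters only. Of the 26 genes compared, 21 had a promoter in the RefSeq table. TATAAA was in 9 of these 21, or 42.9%, and in 12.4% of all 32851 promoters of this length. TGCTGA was in 6 (28.6%, against 16.1% of all) and TTGCNNAA and TGANTCA in 3 each (14.3%, against 9.56% and 6.75% of all). Cd209f and Cd209g, alike in sequence, are both among the 3 with TGANTCA and the 9 with TATAAA, so their matches are not independent. The PU.1 motif GAGGAAGT was in 0 of the 21 and in 2.44% of all, and the NF-κB motif in 0 of the 21 and in 3.9% of all.

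The Clec2 family includes genes for ligands of NK cell receptors. Of its 7 genes 3 were compared, all at low levels and none 4-fold apart after the pseudocount of 1. Clec2d encodes Clr-b, the ligand by which cells engage the inhibitory NK receptor NKR-P1B. It stood at 8.99 RPKM in the heart (157 reads), 2.66 in the kidney (50 reads) and 6.53 in the liver library (132 reads). Clec2i, which encodes Clr-g, stood at 4.82, 7.30 and 4.51 RPKM. Clec2f stood at 1.70 RPKM in the heart (16 reads), 0.099 in the kidney (1 read) and 0.092 in the liver library (1 read). As a ratio it was 17.2-fold higher in cardiac than in renal macrophages, with a wide interval of 2.67 to 721.5 that follows from so few reads.

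Clec1a and Clec14a are known from endothelium, and both were highest in the liver library. Clec1a, which encodes the receptor MelLec for fungal melanin, stood at 1.46 RPKM in the heart (69 reads), 2.45 in the kidney (124 reads) and 9.23 in the liver library (504 reads). It was 6.31-fold lower in cardiac than in liver macrophages (4.90 to 8.24), which is -2.05 on the log2 scale and so just past 4-fold, and -1.88 with median ratio scaling. Clec14a had 0 reads in the heart, 1 in the kidney and 99 in the liver library, where it stood at 1.30 RPKM, and was at least 28.5-fold lower in cardiac than in liver macrophages. Of 10 endothelial markers, 2, 3 and 5 had RPKM of at least 1 in the heart, kidney and liver library, with sums of 11.7, 14.1 and 88.8 RPKM. Cdh5 stood at 0.766, 0.032 and 52.9 RPKM and Pecam1 at 3.15, 7.89 and 25.8. Emcn ran the other way, at 5.26, 3.955 and 0.908 RPKM. Esam and Vwf had 0 reads in the liver library, and Flt1, Egfl7 and Tie1 had 0 in the kidney. The part of endothelial RNA in the levels of Clec1a and Clec14a was not tested.

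The other 13 genes stayed below RPKM of 1 in all libraries, with at most 67 reads. They include all 5 genes of secreted or intracellular proteins, of which Clec16a had 54, 62 and 67 reads in the heart, kidney and liver library and a level of 0.6, 0.641 and 0.643 RPKM. Clec3b, which encodes tetranectin, had 2, 0 and 0 reads and Clec11a 0, 4 and 0. The other low genes were Clec2e, Clec2g, Clec2h, Clec4b2 and Cd209c, which had 1 to 11 reads in the libraries where they were found. Clec3a, Clec18a, Clec2l, Clec12b and Cd209e had 0 reads in every library. On 2000 bp of exon a floor of 3 reads is 0.104, 0.0965 and 0.0896 RPKM in the heart, kidney and liver library, and levels below this rest on fewer than 3 reads.

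Of the 39 genes 24 lie on chromosome 6 and 10 on chromosome 8, most of them in 3 clusters, and neighbours within a cluster could differ widely in level. Of the genes outside the clusters, those with RPKM of at least 10 in a library are Clec4f (chromosome 6, 83644542 to 83656116, minus strand), Clec5a (chromosome 6, 40574898 to 40585805, minus strand) and Clec10a (chromosome 11, 70166623 to 70170836, plus strand). On mm10 chromosome 6, from 122921848 to 123289871, a stretch of 368 kb holds 9 listed symbols, all of them C-type lectin genes. At its one end Clec4a1, Clec4a3, Clec4a4, Clec4b1 and Clec4a2 were within 4-fold in all comparisons. At its other end Clec4n, Clec4d and Clec4e, each lowest in the kidney library, stood at 105, 3.15 and 0 RPKM there, and Clec4b2 between the ends had at most 4 reads.

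A second stretch on chromosome 6, from 128662385 to 129472779, runs over 810 kb from Clec2h to Clec7a and holds 12 C-type lectin genes among 24 symbols. Within it Clec1b, highest in the liver library, lies beside Clec9a, highest in the kidney library, and Clec7a, even in the 3 libraries, lies beside Clec1a. Clec12b, with 0 reads, lies between Clec12a and Clec1b. On chromosome 8, from 3716071 to 4137707, 8 C-type lectin genes among 9 symbols span 422 kb. Its outer genes Clec4g, Cd209f and Cd209g were highest in the liver library, Cd209a next to Clec4g was highest in the heart library, and Cd209e, Cd209d, Cd209b and Cd209c between them stood at 0, 10.9, 1.70 and 0.045 RPKM in the heart library.

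**Figure D4:**
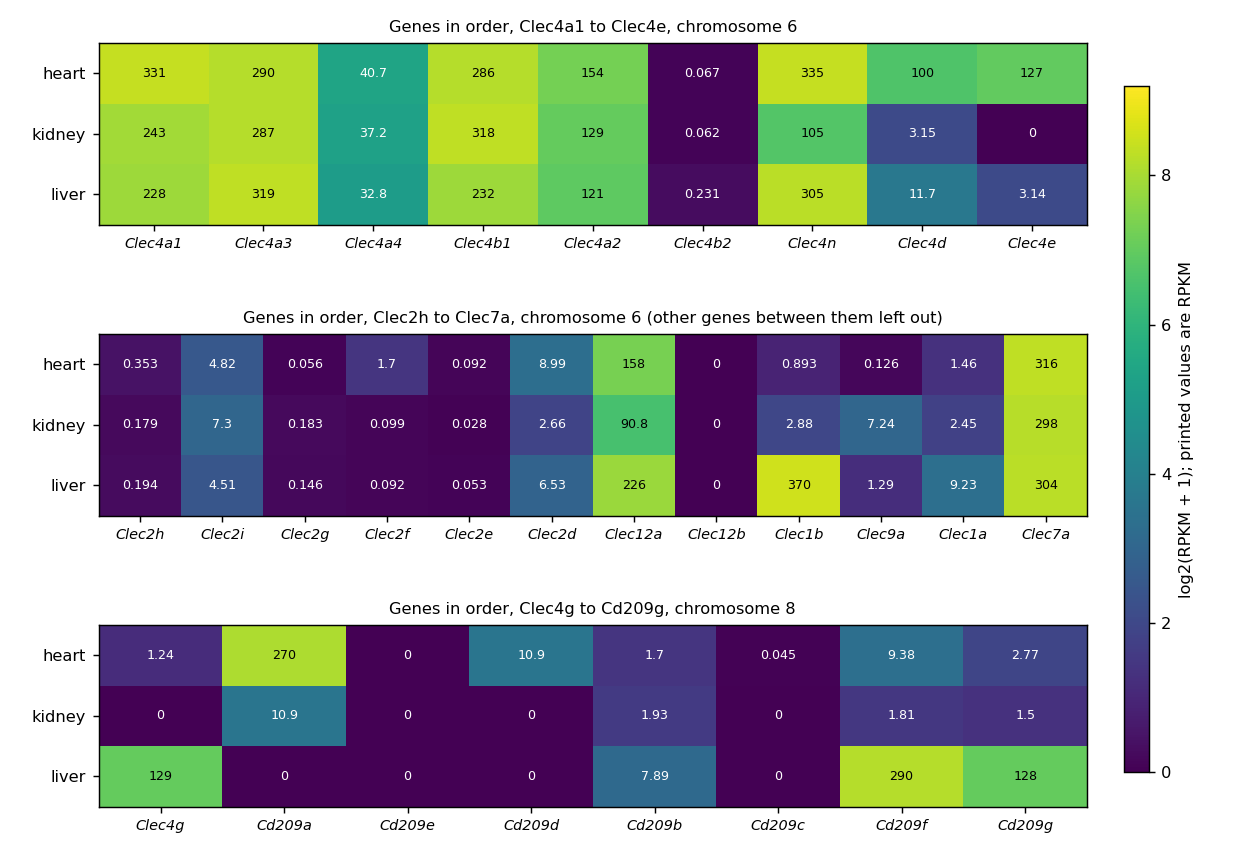
The 3 clusters in gene order, with a column for each C-type lectin gene and a row for each of the heart, kidney and liver library, coloured by log2(RPKM + 1) with the RPKM written in each cell. Adjacent columns change from dark to light, as between Clec4g and Cd209a, where the liver library has 129 and 0 RPKM and the heart library 1.24 and 270.1.

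Genes of the signalling pathway below these receptors were counted in the same way. Of 28 listed signalling genes 26 were compared. Between the heart and the kidney library 0 were higher and 1 lower in the heart, between the heart and the liver library 0 were higher and 2 lower in the heart, and between the kidney and the liver library 1 was higher and 2 lower in the kidney. These counts are few, as are the shares over all genes, 2.4% and 5.1%, 5.33% and 7.13%, and 7.57% and 5.1%. The median differences were -0.19, -0.02 and 0.08. Fcer1g, the FcRγ chain used by Dectin-2, Mincle and MCL, stood at 396, 364 and 387 RPKM in the heart, kidney and liver library. Tyrobp, which encodes DAP12, the adaptor of Clec5a, stood at 392, 416 and 470. Syk stood at 30.8, 40.6 and 54.2 RPKM. Fcer1g, Tyrobp and Syk were within 4-fold also where Clec4e, Clec4d or Clec5a was low. What the authors' limit on tags at a position did to the high values of Fcer1g and Tyrobp was not tested. Equal RNA levels therefore do not follow from the even values of these genes. Fcer1g, Tyrobp and Syk were singled out after their values were seen.

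The widest ranges in the list belonged to Hcst, Blnk, Fyn and Ptpn6. Hcst, which encodes DAP10, a partner of DAP12 and of NKG2D, stood at 15.7 RPKM in the heart, 33.8 in the kidney and 184 in the liver library. Blnk, an adaptor downstream of Syk, stood at 73.9, 128 and 18.5 RPKM, and the kinase gene Fyn at 6.89, 1.98 and 17.5. Ptpn6, which encodes SHP-1, a phosphatase recruited by inhibitory motifs such as that of Clec4a2, stood at 39.1 RPKM in the heart, 177 in the kidney and 194 in the liver library, and 6.96% of its exon bases are shared with another gene. Card9, which passes the Syk signal on to NF-κB, had 11, 28 and 1 reads, a level of 0.476, 1.13 and 0.037 RPKM. Its partner Bcl10 stood at 53.2, 26.0 and 19.5 RPKM. Malt1, the protease of the same complex, was at 5.18, 2.05 and 2.24. Card9, Bcl10 and Malt1 were also chosen after their values were seen.

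**Figure D5:**
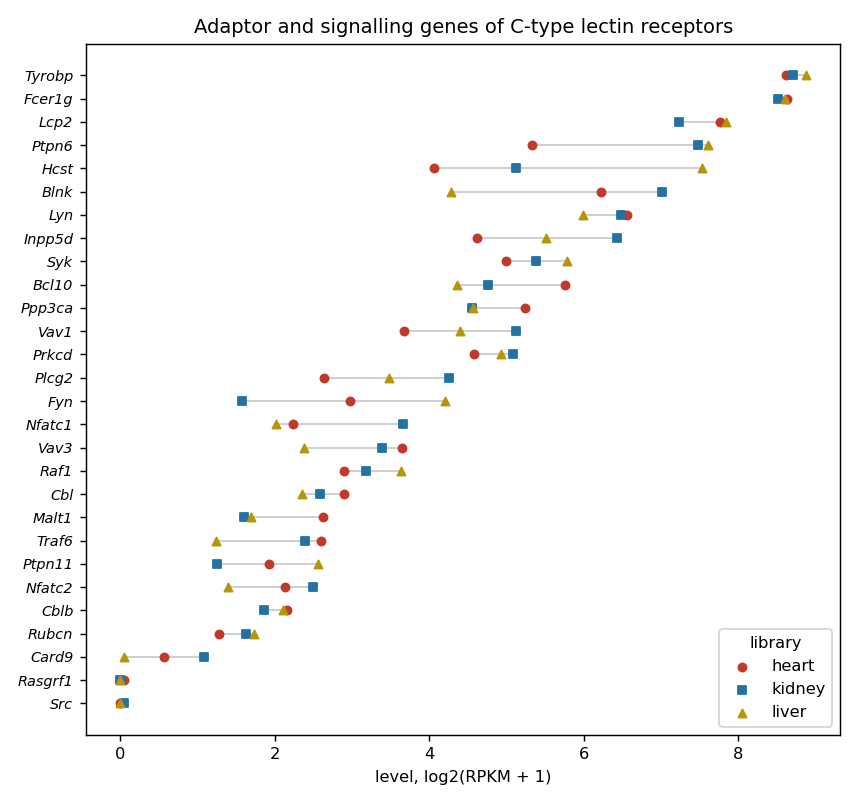
Level of 28 genes that signal downstream of C-type lectin receptors, as log2(RPKM + 1), in the heart (circles), kidney (squares) and liver library (triangles). Most genes have their 3 points close together, with Hcst farthest apart at 15.7, 33.8 and 184 RPKM. Card9 is among the low genes, at 0.476, 1.13 and 0.037 RPKM.

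Of 5 genes for ligands of these receptors, all were compared. Against the kidney library 1 was higher and 1 lower in the heart library, and against the liver library the same numbers held. Between the kidney and the liver library 1 was higher and 0 lower in the kidney. The shares over all genes, higher and lower, were 2.4% and 5.1%, 5.33% and 7.13%, and 7.57% and 5.1%. Anxa1, which encodes annexin A1, a ligand of Dectin-1 on apoptotic cells, stood at 365 RPKM in the heart, 43.2 in the kidney and 6.58 in the liver library. Icam2, which encodes a ligand of human DC-SIGN, stood at 0.73, 22.5 and 18 RPKM. Pdpn, which encodes podoplanin, the ligand of CLEC-2, had 39 reads in the heart and 0 in the kidney and in the liver library, where its receptor gene Clec1b was highest. Sap130, which encodes a ligand of Mincle, stood at 0.554, 2.45 and 2.01 RPKM.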

How the data were processed

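The authors deposited RPKM for 34711 RefSeq transcripts, computed per the file headers with the HOMER program analyzeRepeats.pl over exons on both strands, with reads scaled to 1000000 for each library and the option -pc 3, which limits the tags counted at a position to 3. The column names say FPKM where the command asks for RPKM. CASAVA, STAR and mm10 are named in the submitters' processing notes, with versions not given in the sources used here. Since both strands were counted, genes that overlap cannot be separated, and the shared exon bases were taken from GENCODE M21.

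RPKM times exon length gave whole multiples of a step, taken as 1 read. All 15239, 14167 and 12084 low values of the heart, kidney and liver library, those of up to 500 reads, were within 0.1 of a whole read. A read is counted again for each transcript it touches. With 1 library for each tissue no test was made, and no p-value is given. Calls need RPKM of at least 1 in a library and 2 log2 units on log2(RPKM + 1). Python 3.11.15, numpy 2.4.6, pandas 2.3.3 and scipy 1.17.1 were used, and the scripts were tested on simulated data.

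The C-type lectin genes and the 18 gene lists, 4 of pathways and 14 of markers, were chosen with earlier results of these data known, and the kinds of receptor were assigned after the values were seen. Every C-type lectin gene with RPKM of at least 10 in a library was named in full, those that reached 1 with their values, and of pathway lists up to 4 genes with the widest range. Sharing between genes was the percent of windows of 50 bases found in another gene. Other pseudocounts, minimums, scalings and transcripts were tried.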

Additional observations from a re-analysis of the deposited data

How the results depend on the processing

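The counts of genes at least 4-fold apart depended on low and on very dense genes. Between the heart and the kidney library 7 genes instead of 4 were higher in the heart with a pseudocount of 0.1 and also with TPM scaling. There 0 instead of 1 were lower in the heart with a pseudocount of 5 and without genes that share exon bases, since Clec9a stood at -1.26 with the first and was left out by the second. Between the kidney and the liver library 1 gene instead of 2 was higher in the kidney with a pseudocount of 5 and also without genes of over 2 reads per bp. Leaving out those dense genes also left 1 instead of 6 lower in cardiac and 1 instead of 6 lower in renal than in liver macrophages, since Clec4f, Clec1b, Clec4g, Cd209f and Cd209g are all among them. Without dense genes 11, 9 and 11 genes instead of 22, 20 and 23 had RPKM of at least 1 in the heart, kidney and liver library, and with a minimum of 5 the kidney count was 13. A pseudocount of 5 also ended the calls of Cd209d (1.67 in both comparisons with the heart), Clec1a (-1.14, heart minus liver), Cd209a (1.67) and Clec4e (-0.70, both kidney minus liver). Median ratio scaling brought Cd209f to 2.05 for heart minus kidney. Over all genes, 5.33% were higher and 7.13% lower in cardiac than in liver macrophages, but 11.6% and 9.56% with TPM and 6.61% and 5.9% with median ratio scaling. TPM scaling multiplied the heart, kidney and liver levels by 3.64, 3.49 and 3.21. The pseudocount and the minimum of 1 were thereby smaller against the levels, and this was not separated from the scaling between libraries. No difference changed sign where it was called.

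No paired analysis was possible because each tissue has 1 library, and for the same reason leaving out a replicate was not possible. Differences between tissues and differences between single preparations cannot be told apart. The effect of the limit of 3 tags at a position on dense genes was not tested.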

Other observations

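Receptors with a C-type lectin domain but other names were also followed, a list of 33 genes of which 22 were compared. Between the heart and the kidney library 2 were higher and 1 lower in the heart, between the heart and the liver library 4 were higher and 5 lower in the heart, and between the kidney and the liver library 4 were higher and 6 lower in the kidney. The shares over all genes were 2.4% and 5.1%, 5.33% and 7.13%, and 7.57% and 5.1%. Cd207, which encodes langerin, stood at 4 RPKM in the heart, 3.30 in the kidney and 277 in the liver library. Fcer2a, the low-affinity IgE receptor also known from B cells, stood at 0.124, 0 and 22.5 RPKM, and Klrc1, a receptor of NK cells, at 0, 0 and 22. T and NK cell markers summed to 18.2, 1.55 and 81.2 RPKM and B cell markers to 38.8, 174 and 262, and their part in these values was not tested. Colec12, a scavenger receptor, stood at 11.6 RPKM in the heart with 0 reads in the kidney and the liver library.

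Mgl2, the neighbour of Clec10a that encodes its relative MGL2, stood at 371 RPKM in the heart, 352 in the kidney and 46.5 in the liver library, so both genes were lowest in the liver library. The mannose receptor gene Mrc1 stood at 348, 153 and 206 RPKM. Of 6 soluble collectins, Colec10 and Colec11 stood at 3.07 and 4.59 RPKM in the liver library and had no read in either other library, and Mbl1, Mbl2, Sftpa1 and Sftpd had 0 reads in every library. Hepatocyte markers summed to 389.5, 384 and 727 RPKM in the heart, kidney and liver library, of which Trf gave 388, 382 and 384, and their part in the collectin values was not tested. Mgl2 and Mrc1 were chosen after their values were seen.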
